A study of Mus musculus with 6 samples.

Results

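Sybu codes for syntabulin, and it was described here together with the genes of kinesin-1 and of the adaptors that couple this motor to its cargo. The 10 genes were Sybu, the heavy chain genes Kif5a, Kif5b and Kif5c, the light chain genes Klc1 and Klc2, the JNK-interacting protein genes Mapk8ip1 and Mapk8ip3, and Trak1 and Trak2. They were taken by name from a table of 53379 genes, and all 10 were among the 21244 genes that passed the filter on low counts. The set was selected on its difference between the genotypes in these libraries: Sybu was chosen by its log2 fold change and adjusted p, as 1 of the 8 genes that passed the threshold, and the others for their link to it with their own values known. The genotype differences of the 10 genes are therefore a description. Their intervals show the spread between libraries, and counts of them past a threshold stand beside the share of all genes and support nothing. On mm10, Kif5a lies on chromosome 10 (127225696 to 127263348, minus strand), Kif5b on 18 (6201002 to 6242174, minus) and Kif5c on 2 (49619298 to 49774778, plus). Klc1 lies on chromosome 12 (111758849 to 111807844, plus) and Klc2 on 19 (5107746 to 5118560, minus). Mapk8ip1 lies on chromosome 2 (92383676 to 92401263, minus), Mapk8ip3 on 17 (24892153 to 24936977, minus), Trak1 on 9 (121297502 to 121474918, plus) and Trak2 on 1 (58900449 to 58973430, minus).

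Kinesin-1 walks along microtubules toward their plus ends, which in an axon carries cargo away from the cell body. Its heavy chains hold the motor domains, and its light chains and separate adaptor proteins choose what is carried. Syntabulin binds the heavy chain and the membrane protein syntaxin-1, and is known from cultured neurons for moving presynaptic membrane and mitochondria into axons. TRAK proteins tie kinesin-1 to the Miro proteins of the outer mitochondrial membrane, and JNK-interacting proteins bring vesicles together with stress kinases. In newborn cortex, projection neurons are still extending axons and forming their first synapses.

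The libraries came from total RNA of cortex dissected from mice at postnatal day 0, all labelled C57BL/6. One group of 3 was heterozygous for Npas3 (Npas3+/-), which codes for a brain transcription factor of the bHLH-PAS family, and the other group of 3 was wild type (WT). The labels do not describe the Npas3 allele, the sex of the mice, or whether each library came from a separate animal, so the spread given below may be technical.

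Total counts ran from 67378231 to 87811574 per library. Npas3 itself was counted 650 to 1315 times in the Npas3+/- libraries and 1583 to 2388 times in WT, at 48.6% of the WT level after scaling. On the first principal component (28% of the variance), WT spanned 10.8 to 47.7 and held Npas3+/- replicate 3 (23) within its range, while the other Npas3+/- libraries lay at -65.9 and -44.1. Only Npas3+/- replicate 2 had Xist in quantity (3670 CPM, the count scaled to a common library size), the highest value elsewhere being 2.02 CPM. All 14 projection neuron markers were found, with summed levels of 7890 to 8840 CPM in Npas3+/- and 7640 to 8110 CPM in WT, while choroid plexus markers summed to 2.93 CPM at most. Striatal markers summed to 391, 409 and 600 CPM in Npas3+/- replicates 1 to 3 and to 566, 606 and 378 CPM in WT.

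The heavy and light chain genes are paralogs, so it was checked how far a read could match more than one of them. No 50-base stretch of the annotated Kif5a, Kif5c, Klc1 or Klc2 transcripts recurred in a transcript of another gene, with genes overlapping them on the genome left out. Klc2 exons overlap those of the antisense gene AC124502.1 over 439 bases, 10.6% of the summed length of Klc2 exons. AC124502.1 is not among the genes of the deposited counts. The strand setting of the counts is not given in the sources used here. To show how near the paralogs come, the closest pair of 50-base coding stretches is printed for Kif5a and Kif5c, which differ at 3 bases, and for Klc1 and Klc2, which differ at 5. Only stretches within a single exon of each gene's transcript with the longest coding sequence were compared. Capitals mark the bases that differ within each pair. All lie on mm10, in exon 23 of the Kif5 transcripts and exon 5 of the Klc transcripts, read 5′ to 3′ along the gene.
Kif5a, chr10:127233827-127233876, minus strand: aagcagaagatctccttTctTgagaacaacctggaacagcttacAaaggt
Kif5c, chr2:49752294-49752343, plus strand: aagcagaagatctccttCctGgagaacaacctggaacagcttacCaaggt
Klc1, chr12:111776928-111776977, plus strand: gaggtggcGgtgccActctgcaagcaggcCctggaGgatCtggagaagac
Klc2, chr19:5112778-5112827, minus strand: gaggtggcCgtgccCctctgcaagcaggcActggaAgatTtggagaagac
Elsewhere among the 10 genes, the share of 50-base windows that also occur in other genes' transcripts was 1.08% for Kif5b, 0.167% for Sybu and 0.0393% for Trak1. It was 0 for Mapk8ip1, Mapk8ip3 and Trak2. Genes that overlap a member on the genome were left out of these shares, and exons of Sybu, Kif5b, Mapk8ip1 and Mapk8ip3 do overlap those of other genes.

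Sybu was the member with by far the largest difference between the genotypes. Sybu (ENSMUSG00000022340, mm10 chromosome 15, 44671856 to 44788063, minus strand) stood at 292.5, 325.0 and 343.6 CPM in Npas3+/- replicates 1 to 3. In WT it stood at 152.6, 134.9 and 141.4 CPM. The lowest Npas3+/- library was thus well above the highest WT library, on 24995 to 25945 counts against 10144 to 11327. The means were 320.4 ± 25.8 and 143.0 ± 8.98 CPM (SD, n = 3), a 2.24-fold difference, and edgeR put the log2 fold change at 1.16 (SE 0.08, 95% interval 0.99 to 1.34). In bulk tissue, more RNA per cell and more cells that make it cannot be told apart. Among the 2648 tested genes whose mean level lay within the range of the 10 members, 3 had a higher log2 fold change than Sybu. Since Sybu was chosen by this value, its high rank follows from the choice.

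The size of the Sybu difference did not hang on a single library, within the same 6 libraries by which Sybu was chosen. With each of the 6 libraries left out in turn, the log2 fold change lay between 1.12 and 1.23. Npas3+/- replicate 3, which sat with WT on the first principal component, had the highest Sybu level of all. Without replicate 2, the library with Xist, the value was 1.16.

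**Figure D1:**
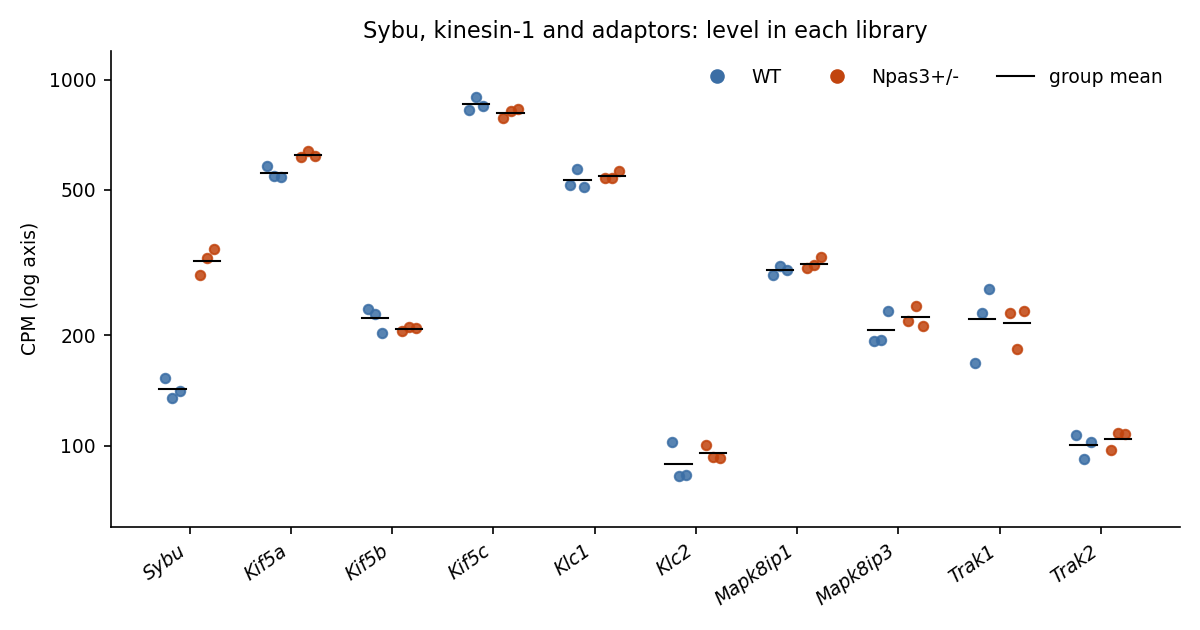
Level of each of the 10 genes in every library, in CPM on a log axis, with WT in blue, Npas3+/- in orange and a black bar at each group mean. The Sybu points of the genotypes lie far apart (134.9 to 152.6 against 292.5 to 343.6 CPM), while those of 8 of the other genes overlap and those of Kif5a lie close together.

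One tested gene overlaps the exons of Sybu, on the opposite strand. A930017M01Rik, a transcribed processed pseudogene on the plus strand, overlaps Sybu exons over 207 bases, 2.69% of their summed length. It was counted 1107 to 1449 times in Npas3+/- and 948 to 1086 times in WT. Its levels were 16.5, 17.2 and 14.7 CPM in Npas3+/- and 15.4, 12.9 and 13.2 CPM in WT, which overlap. Its log2 fold change was 0.22 (SE 0.11), far below that of Sybu. Reads of both genes in the overlap cannot be told apart without strand, and the strand setting is not given in the sources used here.

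No tested neighbour of Sybu was higher in Npas3+/- by as much as Sybu. Of the 18 annotated genes within 1 Mb of it, 9 were tested and 0 passed the threshold in edgeR's quasi-likelihood test, against 0.0377% of all tested genes. At an unadjusted p under 0.05 there were 3, Nudcd1 (higher in Npas3+/-, against 6.29% of all genes tested) and Eny2 and Trhr (lower, against 5.84%). These are named after their values were seen. Trhr, the receptor gene for thyrotropin-releasing hormone, was scarce, at 2.03, 1.48 and 1.96 CPM in Npas3+/- and 4.36, 3.57 and 2.44 CPM in WT, and its log2 fold change was -0.92 (95% interval -1.54 to -0.31). Eny2 had -0.24 (SE 0.07). Groups did not overlap for 4 of the 9 (44.4%, against 18.9% of all genes tested), 1 higher and 3 lower in Npas3+/-. DESeq2 called Nudcd1 (adjusted p = 0.0383), where it called 3.03% of the genes to which it gave an adjusted p. In limma-voom 0 were called, against 0.0424% of all genes tested. Ebag9, the nearest tested gene on the left at 30.3 kb, had a log2 fold change of -0.04 (SE 0.09). Kcnv1, a modifier subunit of potassium channels and the nearest on the right at 318.2 kb, had 0.15 (SE 0.17). Values of Nudcd1 were 19.4 to 22.5 CPM in Npas3+/- and 15.6 to 16.9 CPM in WT, a log2 fold change of 0.39.

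**Figure D2:**
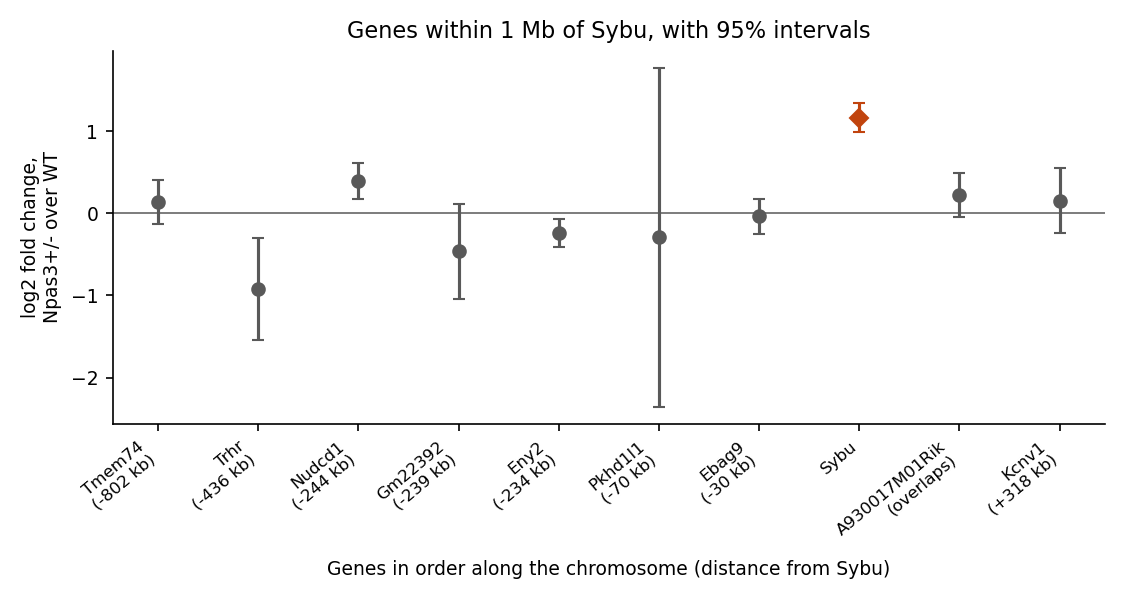
Log2 fold change of Npas3+/- over WT for Sybu (orange diamond) and the 9 tested genes within 1 Mb, in chromosome order and not to scale, with 95% intervals from edgeR. Sybu lies at 1.16 and the highest neighbour, Nudcd1, at 0.39.

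The 3 heavy chain genes were all abundant and differed little by genotype. Kif5a, which is confined largely to neurons and is mutated in a form of hereditary spastic paraplegia, stood at 613.9, 637.1 and 619.2 CPM in Npas3+/- and at 581.6, 545.6 and 541.2 CPM in WT. It was the only other member whose groups did not overlap, with a log2 fold change of 0.16 (SE 0.04, 95% interval 0.06 to 0.27). Kif5c, the other neuron-enriched heavy chain gene, stood at 785.7, 819.6 and 832.0 CPM in Npas3+/- and at 828.2, 899.1 and 845.8 CPM in WT. The highest Npas3+/- value of Kif5c lay just above the lowest WT value, and its log2 fold change was -0.08 (95% interval -0.19 to 0.03). Kif5b, the widely expressed heavy chain that syntabulin was first found to bind, stood at 205.2, 210.7 and 209.2 CPM in Npas3+/- and at 235.9, 229.4 and 203.0 CPM in WT. All 3 Npas3+/- values fell inside the WT range, with a log2 fold change of -0.10 (95% interval -0.25 to 0.05).

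Added together per kb of annotated exon, the heavy chains stayed at one level. Their sum was 229 ± 4.79 CPM per kb in Npas3+/- and 228 ± 5.79 CPM per kb in WT (SD, n = 3). Within that sum, Kif5a took 39.3%, 39.2% and 38.3% in Npas3+/- and 36.4%, 33.5% and 35% in WT. Kif5c took 49.2%, 49.4% and 50.4% in Npas3+/- and 50.7%, 54.1% and 53.5% in WT. For both genes the groups lay side by side without overlap, Kif5a higher and Kif5c lower in Npas3+/-. Shares of a sum are not independent, so these and the count ratio that follows show the same contrast. The ratio of Kif5a counts to Kif5c counts, which needs neither gene length nor library scaling, was 0.781, 0.777 and 0.744 in Npas3+/- and 0.702, 0.607 and 0.640 in WT. The longest Kif5a transcript has a GC content of 53.8% and that of Kif5c 47.5%. With the trend of each library on GC content removed, the log2 fold changes of the genes were 0.13 and -0.06.

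**Figure D3:**
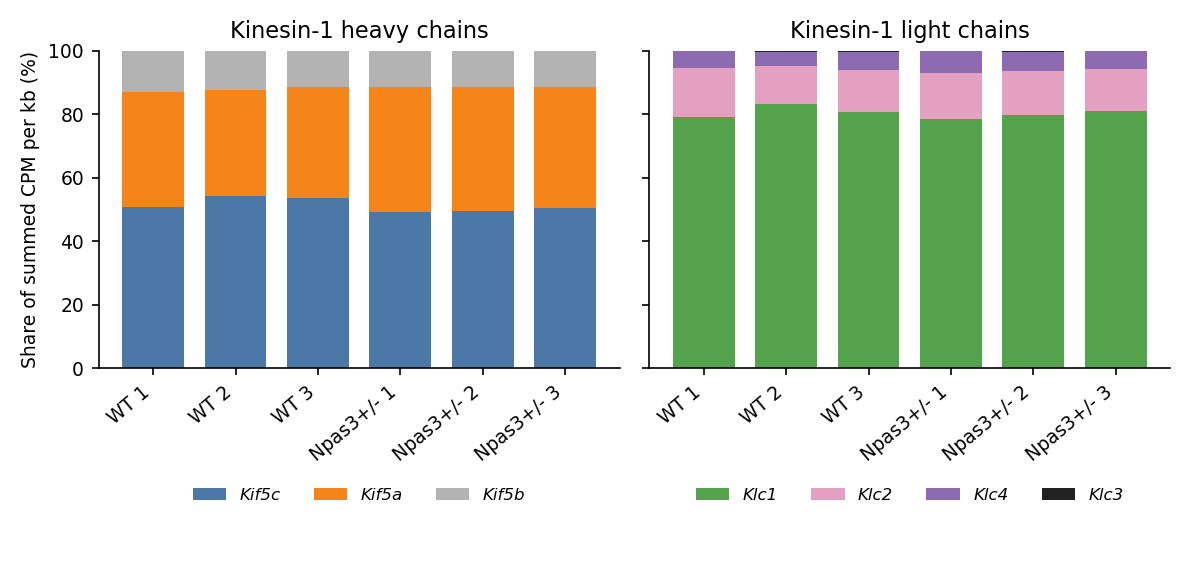
Share of each heavy chain gene (left) and light chain gene (right) in the summed CPM per kb of its family, in percent, 1 stacked bar per library. The Kif5a share is 38.3% to 39.3% in the Npas3+/- bars and 33.5% to 36.4% in the WT bars, and Klc1 fills most of every light chain bar.

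Set against the heavy chains, Sybu went from 8.66, 7.53 and 8.29 per 100 heavy chain transcripts in WT to 17, 18.2 and 19.3 in Npas3+/-, as a ratio of CPM per kb. The highest WT ratio lay far below the lowest Npas3+/- ratio. The means, 8.16 and 18.1, became 13.9 and 30.9 when length was taken from the longest transcript in place of all annotated exons, since 7702 bases of Sybu exon are annotated and its longest transcript holds 4113. The ratio of light to heavy chains was 0.735 ± 0.0216 in Npas3+/- and 0.708 ± 0.0137 in WT (SD, n = 3), with overlapping groups.

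Klc1 and Klc2 overlapped between the genotypes. Klc1, which codes for the light chain that prevails in neurons, stood at 538.4, 537.4 and 564.2 CPM in Npas3+/- and at 514.5, 570.1 and 509.8 CPM in WT. Klc2, which codes for a second light chain of the brain, stood at 100.4, 93.08 and 92.69 CPM in Npas3+/- and at 102.2, 82.64 and 83.13 CPM in WT. WT spanned the whole Npas3+/- range in both. The log2 fold changes were 0.04 (95% interval -0.09 to 0.17) for Klc1 and 0.09 (95% interval -0.12 to 0.31) for Klc2. Klc1 made up 79.8 ± 1.27% of light chain CPM per kb in Npas3+/- and 81.0 ± 2.09% in WT (SD, n = 3), and Klc2 made up 13.7 ± 0.66% and 13.4 ± 1.84%. Klc4 made up 6.22 ± 0.678% and 5.23 ± 0.655%, and Klc3 under 1% in every library. Klc4, a less studied light chain gene, had a log2 fold change of 0.32 (SE 0.11, edgeR adjusted p = 0.338), and its levels, unlike its share, did not overlap between the groups.

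Mapk8ip1 and Mapk8ip3 also overlapped between genotypes. Mapk8ip1, which codes for the scaffold JIP1 that binds kinesin light chains and the amyloid precursor protein, stood at 304.9, 311.1 and 327.6 CPM in Npas3+/- and at 292.7, 310.6 and 301.8 CPM in WT. Mapk8ip3, which codes for JIP3, an adaptor of both kinesin-1 and dynein in axons, stood at 219.0, 241.4 and 212.9 CPM in Npas3+/- and at 192.6, 194.6 and 234.0 CPM in WT. WT replicate 3 held the second highest Mapk8ip3 value of the 6 libraries, while the other WT libraries held the lowest. The log2 fold changes were 0.06 (95% interval -0.05 to 0.17) and 0.12 (95% interval -0.09 to 0.32). Together with Mapk8ip2 and Spag9, which code for the other JIP proteins, they summed to 165 ± 3.09 CPM per kb in Npas3+/- and 159 ± 1.36 CPM per kb in WT (SD, n = 3), without overlap. Mapk8ip1 took 40.9 ± 1.17% and 40.8 ± 1.11% of this sum, and Mapk8ip3 9.32 ± 0.575% and 8.92 ± 0.932%, both with overlapping groups. The Mapk8ip2 share was 26.7% to 27.4% in Npas3+/- and 26.4% to 26.6% in WT, and the Spag9 share 22.3% to 22.8% and 23.1% to 25.1%, neither with overlap. These shares are likewise not independent of each other. Mapk8ip2 itself had a log2 fold change of 0.09 (SE 0.04, edgeR adjusted p = 0.454), with groups apart, and Spag9 -0.02 (SE 0.05), with overlapping groups. Annotated Mapk8ip3 exons overlap those of Eme2 on the same strand over 1557 bases and of Mrps34 on the other over 1309 bases, so reads there may have been dropped or shared.

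Trak1 and Trak2 code for the adaptors of mitochondria. Trak1 stood at 231.1, 184.0 and 233.2 CPM in Npas3+/- and at 168.4, 230.0 and 267.4 CPM in WT. Its lowest and highest values both came from WT. Trak1 varied most among libraries of a genotype, with a coefficient of variation of 22.5% in WT, against a median of 4.82% for the 2648 genes at similar levels. Trak2 stood at 97.58, 108.2 and 107.7 CPM in Npas3+/- and at 107.0, 92.11 and 102.4 CPM in WT, with overlapping groups. The log2 fold changes were -0.04 (95% interval -0.43 to 0.35) for Trak1 and 0.06 (95% interval -0.12 to 0.23) for Trak2. The sign of the Trak1 value rested on single libraries, since leaving out Npas3+/- replicate 2 gave 0.07 and leaving out WT replicate 3 gave 0.12. Per 100 heavy chain transcripts there were 13.9 ± 0.939 TRAK transcripts in Npas3+/- and 14.0 ± 1.91 in WT, as a ratio of CPM per kb (SD, n = 3).

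**Figure D4:**
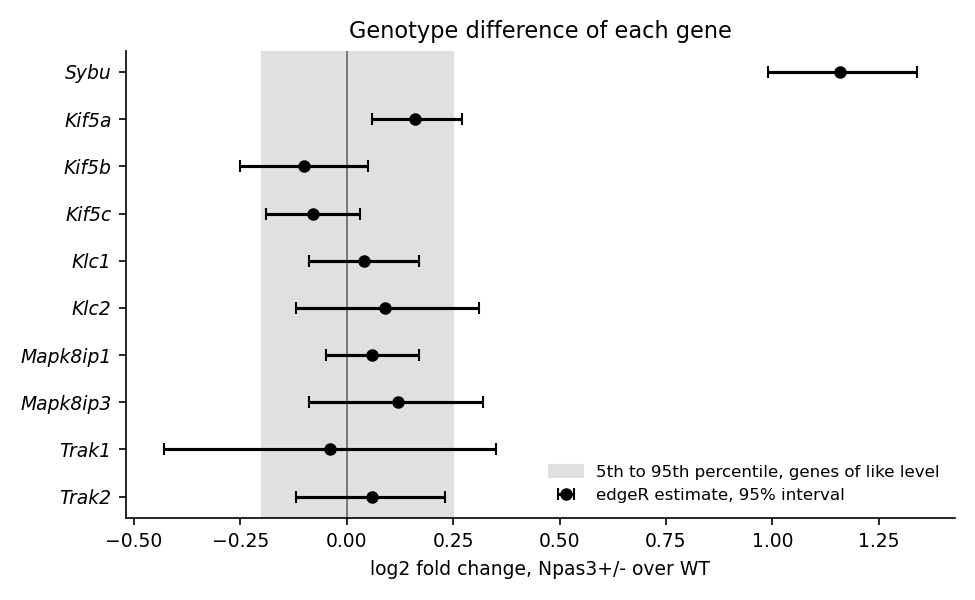
Log2 fold change of Npas3+/- over WT for the 10 genes, with 95% intervals from edgeR, and a grey band from the 5th to the 95th percentile (-0.20 to 0.25) of the 2648 tested genes at similar levels. The Sybu interval lies outside the band, and the estimates of the other 9 lie inside it. Sybu was chosen by its log2 fold change.

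Counted together, 1 of the 10 genes passed the edgeR threshold, against 0.0377% of all genes tested (0.0282% passed as higher), and 2 of the 10 had groups that did not overlap, both higher in Npas3+/-, against 18.9% of all genes (9.7% higher). Since the comparison was known when the genes were chosen, nothing is read from the first share. Without Sybu, 0 of 9 passed, 1 of 9 (Kif5a) had an unadjusted p under 0.05 against 12.1% of all genes tested, and neither DESeq2 nor limma-voom called any of the 9 (limma-voom called 0.0424% of all genes). The median log2 fold change of these 9 was 0.06, against -0.01 over all genes tested. Across all genes, edgeR called 8, or 16 without WT replicate 1, and DESeq2 called 444 (3.03% of the genes to which it gave an adjusted p).

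Per kb of annotated exon, the order of the 10 genes in WT ran from Klc1 (131 ± 8.25 CPM per kb) through Kif5c (120 ± 5.17), Kif5a (79.6 ± 3.17), Mapk8ip1 (65.0 ± 1.92), Kif5b (27.9 ± 2.18) and Klc2 (21.6 ± 2.7) to Sybu (18.6 ± 1.17), Trak1 (17.7 ± 3.98), Mapk8ip3 (14.2 ± 1.6) and Trak2 (14.2 ± 1.07) (SD, n = 3). Klc1 and Kif5c overlapped, and so did each neighbouring pair from Sybu down. In Npas3+/- libraries Sybu, at 41.6 ± 3.35 CPM per kb, moved from place 7 to place 5, above Kif5b (26.1 ± 0.356) and Klc2 (23.1 ± 1.05), without overlap. By this length the other 9 kept their order among themselves. By the length of the longest transcript the order differed: in WT, Sybu stood at 34.8 CPM per kb, below Trak1 at 41.4, and Mapk8ip1 (92.2) stood above Kif5a (88.3), while in Npas3+/- Kif5a (99) stood above Mapk8ip1 (96.1).

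The genes whose pattern over the 6 libraries was most like that of Sybu were Camkv, Lars, Limd2, Fuk and Stim2, out of 15549 genes with a mean of at least 1 CPM. Their Pearson r with Sybu was 0.997, 0.995, 0.994, 0.993 and 0.992 on log2 CPM. The 6 points form 2 groups by genotype, so these values mainly rank genes by how cleanly the genotypes part. Camkv, which codes for a kinase-like protein of synapses, stood at 440, 441 and 452 CPM in Npas3+/- and at 382, 367 and 376 CPM in WT. Stim2, a calcium sensor of the endoplasmic reticulum, had the highest log2 fold change of the 5, 0.56 (SE 0.07), and Lars the lowest, 0.15 (SE 0.05). None of the 5 passed over all genes in edgeR (adjusted p 0.0861 to 0.338). Sybu, which was chosen by its fold change, differed by more than any of them.

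The wider transport machinery was read from 6 lists with 103 genes beside the members. In edgeR 0 of the 103 passed over all genes, against 0.0377%. At an unadjusted p under 0.05 there were 20 of them (19.4%, against 12.1% of all genes tested), 15 higher and 5 lower in Npas3+/-, where 6.29% and 5.84% of all genes tested were higher and lower. DESeq2 called 3, Dpysl2, Map3k12 and Bicdl1, all higher, where it called 3.03% of the genes to which it gave an adjusted p. In limma-voom 0 were called. The median log2 fold change over the 103 was 0.02. Groups did not overlap for 32 of the 103 (31.1%, against 18.9% of all genes tested), 23 higher and 9 lower in Npas3+/-. For the counts at an unadjusted p under 0.05 in each list below, the shares of all genes tested are the same 12.1%, with 6.29% higher and 5.84% lower.

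Among 22 other light chains and adaptors, 12 had positive and 10 negative log2 fold changes, with a median of 0.02, and 4 had an unadjusted p under 0.05, 3 higher and 1 lower. Dpysl2 codes for CRMP2, which links kinesin-1 to tubulin in growing axons, and stood at 321, 333 and 311 CPM in Npas3+/- and at 289, 249 and 245 CPM in WT (log2 fold change 0.30, SE 0.07, edgeR adjusted p = 0.276, DESeq2 adjusted p = 0.0333). Grip1, an adaptor between kinesin-1 and AMPA receptors, stood at 56.3, 56.9 and 58.5 CPM in Npas3+/- and at 61.2, 71.4 and 68.0 CPM in WT (log2 fold change -0.22, SE 0.07, edgeR adjusted p = 0.323). Both genes were named for having the smallest p in the list, and in neither did the groups overlap. Groups were apart for 6 of the 22 (27.3%, against 18.9% of all genes tested).

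In the list of 14 genes for the syntabulin relative syntaphilin, syntaxin cargo and the active zone, 7 values were positive and 7 negative, with a median of -0.01, and 4 had an unadjusted p under 0.05, 2 higher and 2 lower. Unc13a, a vesicle priming factor, stood at 350 ± 11.4 CPM in Npas3+/- and 303 ± 8.78 CPM in WT, and Bsn, which codes for the scaffold bassoon carried on active zone precursors, at 277 ± 1.22 and 254 ± 8.57 CPM (SD, n = 3; edgeR adjusted p = 0.272 and 0.36). Stx1a, which codes for a syntaxin that syntabulin binds, had a log2 fold change of 0.14 (SE 0.08). Snph, which codes for the mitochondrial anchor syntaphilin, had 0.12 (SE 0.34). Both genes are named for their link to syntabulin, after their values were seen.

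Genes of mitochondrial transport and anchoring lay near 0, with a median log2 fold change of 0 over 11 genes, of which 1 had an unadjusted p under 0.05 and was higher. The summed level of the Miro genes Rhot1 and Rhot2 was 16.3 ± 0.202 CPM per kb in Npas3+/- and 15.8 ± 0.317 CPM per kb in WT (SD, n = 3). Miga2 had 0.23 (SE 0.09) and the fission factor gene Mff -0.19 (SE 0.09), with edgeR adjusted p = 0.372 and 0.451.

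For the 11 genes of the JNK cascade that assembles on the JIP scaffolds, the median was 0.06, and 3 had an unadjusted p under 0.05, all higher, against 12.1% of all genes tested and 6.29% higher. Map3k12, the axonal kinase DLK, stood at 129, 149 and 138 CPM in Npas3+/- and at 117, 103 and 116 CPM in WT (log2 fold change 0.31, SE 0.08, edgeR adjusted p = 0.276, DESeq2 adjusted p = 0.0384). Map3k9, a mixed lineage kinase gene, stood at 105, 112 and 103 CPM in Npas3+/- and at 89.0, 94.3 and 93.6 CPM in WT (0.21, SE 0.06, edgeR adjusted p = 0.276). Both genes were named for having the smallest p in the list, and the groups did not overlap in either. Groups were apart for 3 of the 11 (27.3%, against 18.9% of all genes tested).

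Among 18 genes of other kinesins, not all of them axonal motors, the median was -0.01, with 8 positive and 10 negative values. Of these genes 3 had an unadjusted p under 0.05, 1 higher and 2 lower. Kif3a, a subunit of kinesin-2, stood at 169 ± 2.81 CPM in Npas3+/- and 189 ± 4.45 CPM in WT, and Kif16b, an endosomal kinesin, at 9.13 ± 0.392 and 12 ± 1.15 CPM (SD, n = 3; edgeR adjusted p = 0.276 and 0.288). Their log2 fold changes were -0.16 and -0.40.

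Of 27 genes of dynein, dynactin and dynein adaptors, 17 had positive values and the median was 0.05, and 5 had an unadjusted p under 0.05, all higher, against the same 12.1% and 6.29%. Dync1i1, the neuronal intermediate chain of dynein, stood at 217, 226 and 218 CPM in Npas3+/- and at 179, 165 and 200 CPM in WT (log2 fold change 0.28, SE 0.07, edgeR adjusted p = 0.276). Bicdl1, an adaptor that joins dynein to secretory vesicles, stood at 70.5, 74.0 and 49.4 CPM in Npas3+/- and at 45.2, 44.0 and 45.2 CPM in WT (0.53, SE 0.14, edgeR adjusted p = 0.276, DESeq2 adjusted p = 0.0189). Its value in Npas3+/- replicate 3 was near the WT values.

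**Figure D5:**
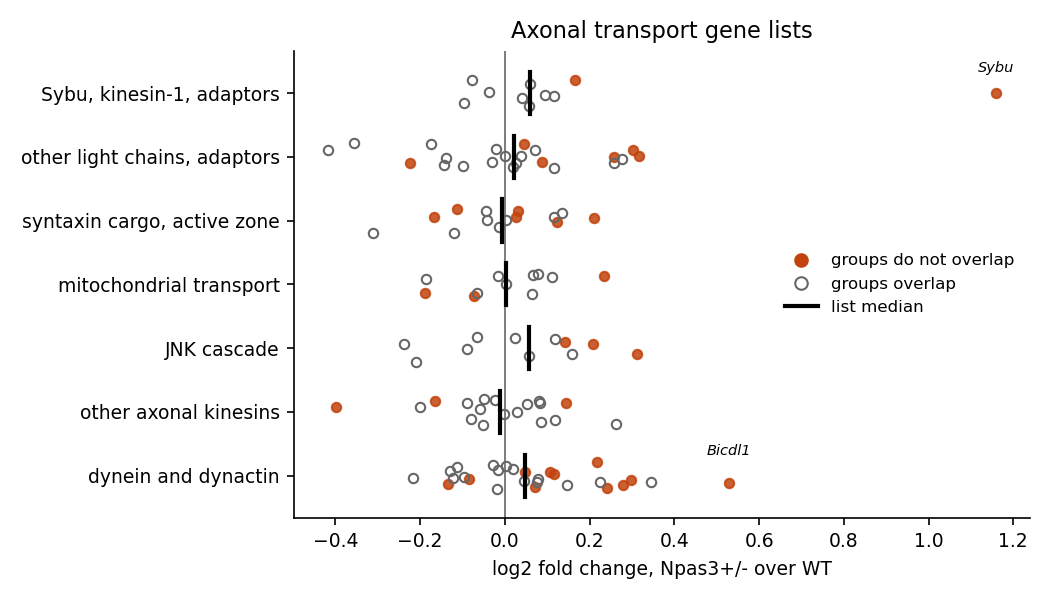
Log2 fold change of Npas3+/- over WT for every gene of the 7 transport lists, 1 point per gene. Filled points mark genes whose groups do not overlap and black bars the list medians, which lie between -0.01 and 0.06, with Sybu alone beyond 1.

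Cell type markers were read beside these values. Astrocyte and radial glia markers summed to 1190 to 1420 CPM in Npas3+/- and 1650 to 1720 CPM in WT, with 13 of 14 negative and 0 called, and oligodendrocyte lineage markers to 306 to 321 and 270 to 302 CPM, with 7 of 8 positive and 0 called. No marker of either list was at 0 in any library. Interneuron markers summed to 610 to 771 CPM in Npas3+/- and 741 to 863 CPM in WT, with 10 of 12 negative and overlapping sums. Of the striatal markers 11 of 13 were negative, with a median log2 fold change of -1.13, and of the microglial markers 8 of 8, with a median of -0.31, and the sums of both lists overlapped. The part of these markers in the Sybu and Kif5a differences was not tested.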

How the data were processed

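RNA sequencing libraries of postnatal day 0 cortex, 3 Npas3+/- and 3 WT, were grouped by their labels. Table columns marked NP were taken as Npas3+/-, the only genotype besides WT. The authors deposited raw read counts per gene. The submitters' processing notes list mm10 as the build and, as tools, featureCounts, HISAT2 2.1.0 and Trimmomatic 0.3.8; their settings are not listed. The annotation release, the strand setting and the handling of reads with several matches are not given in the sources used here.

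Identifiers were matched to GENCODE M21 on mm10 (53274 of 53379). Counts were fitted with edgeR 4.0.16 in R 4.3.3 (filterByExpr, TMM, quasi-likelihood test, genotype as the only term), with Benjamini-Hochberg adjustment over 21244 genes and calls at 0.05. A positive log2 fold change means higher in Npas3+/-, its SE is its size divided by the square root of F, and intervals use the moderated degrees of freedom. Levels are CPM on TMM-scaled totals, and CPM per kb divides by the union of annotated exons. Permutation of 3 against 3 cannot give p below 0.1, so none was run.

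The 10 members, the lists and the alternatives were chosen with earlier results of these data known. Named beside the members were the 2 genes with the smallest p in each list, the genes overlapping or nearest to Sybu, and the 5 genes most like Sybu (Pearson r of log2 of CPM plus 0.5). Alternatives were other scalings, filters, a GC correction (lowess, span 0.4), a replicate block, robust moderation, DESeq2 1.42.0, limma-voom 3.58.1 and each library left out. On simulated counts for 21244 genes in this comparison, edgeR called 47% of genes changed 2-fold and 8.82% of those changed 1.5-fold, with 8 calls among the unchanged. The changed genes were drawn at random from genes of all levels.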

Additional observations from a re-analysis of the deposited data

How the results depend on the processing

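The Sybu log2 fold change ran from 1.12 to 1.24 over 17 alternatives, and that of Kif5a from 0.13 to 0.20. The number of genes called over all genes, 8, was 444 with DESeq2 and 7 to 16 with a library left out, where 16 came without WT replicate 1. With the replicate number as a block it was 3, and 3 with the GC correction and the block together. In those fits 0 members passed, with Sybu at 1.16 (edgeR adjusted p = 0.143) and 1.24 (adjusted p = 0.0871). Same-numbered libraries did not deviate together (correlations 0.0368, -0.03 and -0.0879, with 2 of 6 libraries closest to their own number). The numbers thus gave no sign of pairing, but with 3 libraries a group this check cannot exclude it. DESeq2 called 3 of the other transport genes and 1 gene near Sybu or overlapping a member, where edgeR called 0 of each. Members with values near 0 changed sign. Klc1 was at -0.0127 with the GC correction and -0.0107 with the block as well, Mapk8ip1 at -0.0274 and -0.0273, Trak1 ran from -0.202 to 0.121 with a library left out (0.0661 and 0.121 without Npas3+/- replicate 2 or WT replicate 3), and Trak2 from -0.00192 (without WT replicate 2) to 0.105. With length from the longest transcript, shares in Npas3+/- and WT were 13.7% and 14.7% for Kif5b, 47.0% and 50% for Kif5c, 84.1% and 85% for Klc1, 11.6% and 11.3% for Klc2, and 4.12% and 3.45% for Klc4, and Sybu per 100 heavy chains was 30.9 and 13.9. The causes were not tested. With 3 libraries a group, edgeR called 8.82% of 1.5-fold changes simulated in genes of all levels. That share does not give the recovery for the members. Their fitted variation between libraries was 8.14% to 15.8%, below the common value of 26.1% over all genes tested. The 9 members other than Sybu all differed by less than 1.5-fold.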
